A study of Mus musculus with 2 samples.

Results

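Genes of the vascular endothelium and of angiogenesis were compared between progestin/DMBA-induced mammary tumors of mice on a control diet and of mice on a diet with 0.1% GW9662, an irreversible PPARγ antagonist. A list of 49 genes was used, and its members were found by gene symbol, not by their signals. Of these, 48 were read by at least 1 probe set with a single gene name, out of 12393 genes named on the array. Mmrn2 was not read by such a probe set and has no value here. Both groups were wild-type female FVB mice, aged 5 weeks at the start, that were given the progestin medroxyprogesterone acetate (15 mg, subcutaneous) and then 4 weekly doses of 1 mg DMBA, a polycyclic carcinogen. The groups differed in the diet, standard rodent chow or chow with GW9662 beginning 1 day after the last DMBA dose. Tumor RNA of 5 mice per diet was pooled, and 1 Affymetrix mouse 430A 2.0 GeneChip was hybridized with each pool. A single array stood for each diet, so the diets could not be tested against each other, values have no replicate error, and differences between mice, pools, arrays and diets cannot be told apart.

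Blood vessels are lined by endothelial cells, which are joined by cadherins and claudins and wrapped by mural cells, the pericytes and smooth muscle. Vessel growth is driven by ligands of the VEGF family, which bind the receptors encoded by Flt1, Kdr and Flt4 with neuropilins as coreceptors, and is stabilized by angiopoietins acting on the receptor Tek (Tie2). Many of the ligands are made by cells outside the vessel wall, whereas the receptors and junction proteins mark the endothelium itself. Both fat and muscle are rich in capillaries, and PPARγ is itself expressed in endothelial cells.

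Endothelial markers were mostly lower on the GW9662 array, whereas the angiogenic ligands were divided. Signals are linear intensities as deposited, each gene was read at the probe set that was brightest on average, and a log2 ratio is that of GW9662 over control, so that a negative value is lower with GW9662. Of 41 members with a mean signal of at least 100 over both arrays, 35 (85.4%) were lower on the GW9662 array, compared with 47.1% of 8009 genes past the same minimum. The median log2 ratio was -0.55 over these 41 members and 0.03 over the 8009 genes. The 19 readable endothelial markers had a median log2 ratio of -0.66 with 18 lower, and the 6 readable receptors had a median of -0.64 with 5 lower. Of the 6 readable ligands, 4 were lower and 2 were higher, and their median of -0.11 lay 0.55 above the endothelial markers on the log2 scale. Probe sets of the same gene differed in log2 ratio with an SD of 0.36 over 2639 genes, a spread that holds no variation between mice. In whole tumor RNA, fewer endothelial cells and less RNA per endothelial cell cannot be told apart.

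Few members reached the fold used for a call. Of 30 members whose signal reached 300 on 1 array or both, 1 (3.33%) was at least 3-fold lower with GW9662 and 0 were at least 3-fold higher, compared with 2.68% and 0.215% of 6053 genes. The 3-fold count was therefore near that of all genes. At 2-fold, 5 members (16.7%) were lower and 0 were higher, compared with 4.68% and 1.02% of all genes. Cldn5, Ptprb, Pecam1, Lyve1 and Vegfb were these 5, and each reached 300 only on the control array, where it was higher. At 1.5-fold, a threshold added after the values were seen, 12 (40.0%) were lower and 0 were higher, compared with 9.80% and 6.41%. The 12 were 8 endothelial markers together with Sox18, Nrp1, Lyve1 and Vegfb. The members had lower medians than other genes of like signal. Between mean signals of 100 and 300 the median was -0.76 over 16 members and -0.05 over 2278 genes, and between 300 and 1000 it was -0.42 over 19 members and 0.02 over 3358 genes. Over the 6 members of mean signal 1000 or more, the median was -0.10, beside 0.09 over 2373 genes.

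**Figure D1:**
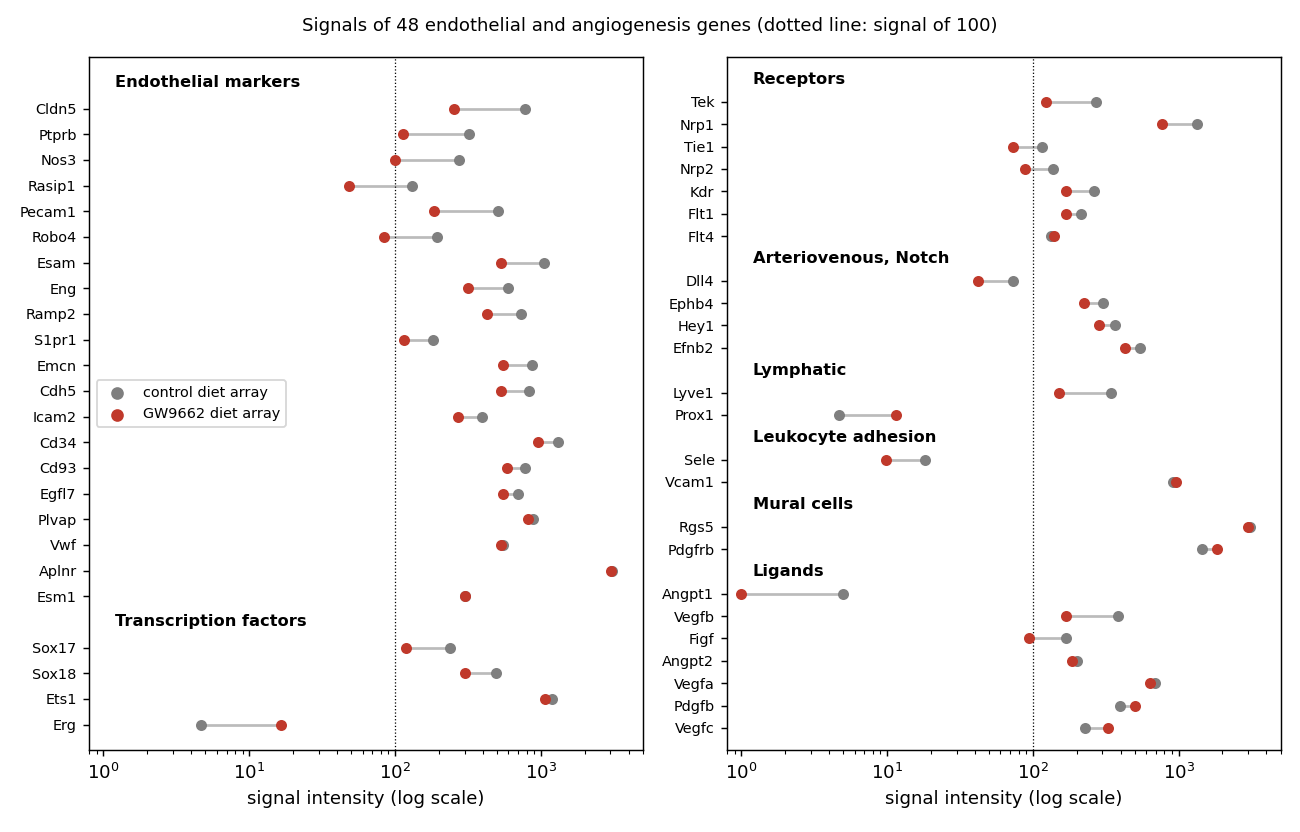
Signal intensity (log axis) of the 48 members by role, where gray points are the control array and red points the GW9662 array, 1 array each, each gene being read at its brightest probe set. Most endothelial markers and receptors have the red point to the left, Vwf, Plvap, Aplnr and Esm1 have overlapping points, and Pdgfb and Vegfc have the red point to the right.

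Among the endothelial markers, Cldn5, a claudin of tight junctions, had signals of 773.8 (control) and 255.7 (GW9662), the order in which pairs of signals are given from here on. At 3.03-fold lower, it was the member past 3-fold. Ptprb, the endothelial phosphatase that acts on Tie2 and VE-cadherin, had signals of 323.2 and 113.4, 2.85-fold lower. Pecam1 (CD31), an adhesion molecule of endothelial contacts that leukocytes and platelets also carry, had signals of 505.4 and 185.3, 2.73-fold lower. Esam, an adhesion molecule of endothelial tight junctions, had 1055.2 and 531.4, 1.99-fold lower. Cdh5, which encodes VE-cadherin of the adherens junction, differed less, with 831.0 and 531.4, 1.56-fold lower. These 5 genes of cell contacts thus shared a direction but ranged from 1.56-fold to 3.03-fold. Icam2, a ligand of leukocyte integrins, had 397.8 and 272.5, 1.46-fold lower.

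Receptors, enzymes and surface proteins among the markers were lower to differing degrees. Nos3, the endothelial nitric oxide synthase, had signals of 276.2 and 99.3, at least 2.76-fold lower when the dimmer signal is read as 100, the floor used for dim signals, but its signal was under 300 on both arrays and it was not counted. Robo4, a receptor that stabilizes the vessel wall, had 193.1 and 83.8, at least 1.93-fold lower. Both genes lay below the floor on the GW9662 array and above it on the control array. Eng, a TGF-β coreceptor, had 592.2 and 316.3, 1.87-fold lower, and a dimmer probe set had 237.9 and 173.3. Ramp2, the partner of the adrenomedullin receptor, had 732.8 and 430, 1.70-fold lower. S1pr1, the receptor for sphingosine 1-phosphate, had 182.2 and 114.8, 1.59-fold lower. Emcn, a sialomucin of veins and capillaries, had 863.8 and 548.5, 1.57-fold lower. Rasip1, which is needed for lumen formation, was dim, with 131.5 and 48.

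Other endothelial markers were nearly level. Vwf, the clotting glycoprotein stored by endothelial cells and platelets, had signals of 553.5 and 532.3. Plvap, which forms the diaphragms of endothelial fenestrae, had 882.1 and 822.1. Aplnr, the receptor for apelin, had 3095.3 and 3014.7, and Esm1, a proteoglycan secreted by sprouting endothelium, had 299.8 and 302.9. These 4 genes differed by at most 1.07-fold, and the direction of Vwf and Aplnr was turned by other scalings of the arrays. A dimmer Aplnr probe set had 243.0 and 193.0. Between these level genes and the genes of cell contacts lay Cd34, a sialomucin shared with blood progenitors and fibroblasts (1311.0 and 957.9, 1.37-fold lower), Cd93, shared with myeloid cells (782.2 and 584.4, 1.34-fold lower), and Egfl7, a secreted endothelial factor (701.4 and 552.8, 1.27-fold lower). The probe sets of Egfl7 did not share a direction, with 497.7 and 398.6, 349.3 and 353.9, and 91.6 and 123.7 at the dimmer ones.

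Endothelial transcription factors followed the markers in part. Sox18, a SOX factor of blood and lymphatic vessels, had signals of 494.6 and 301.7, 1.64-fold lower. Sox17, a SOX factor of arteries, had 237.6 and 119.4, 1.99-fold lower, and 110.6 and 56.7 at its dimmer probe set. Ets1, which lymphocytes and stromal cells also express, had 1201.6 and 1066.7, but its next probe set had 788.2 and 904.5 and differed in direction. The ETS factor gene Erg had 4.7 and 16.5. Olfactory receptor genes, which belong to the nose, served as a measure of dim background, and as none of their 33 probe sets exceeded 25.8, Erg was within background and no direction was read.

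Receptors of vessel growth were lower at most probe sets. Tek, the angiopoietin receptor, had signals of 269.4 and 123.3, 2.18-fold lower, with both signals under 300. Tie1, its orphan partner, had 115.7 and 72.7. Kdr (VEGFR2), the main signaling receptor for VEGF-A, had 261.6 and 169.3, 1.55-fold lower. Flt1 (VEGFR1), which binds VEGF-A, VEGF-B and placental growth factor, had 213.0 and 169.1, 1.26-fold lower, and 146.3 and 92.0 at a dimmer probe set. The receptors for VEGF-A and for angiopoietins were thus lower, and Tek differed most. Flt4 (VEGFR3), the receptor for VEGF-C and VEGF-D on lymphatic endothelium, was nearly level with 133.2 and 140.8. The coreceptor Nrp1, which neurons and tumor cells also express, had 1329.2 and 767.9, 1.73-fold lower, and its other probe sets had 873.5 and 495.4, and 542.7 and 278.2. All 3 Nrp1 probe sets therefore lay between -0.96 and -0.79 on the log2 scale. Nrp2, the coreceptor of lymphatic and venous endothelium, had 138.6 and 88.1.

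**Figure D2:**
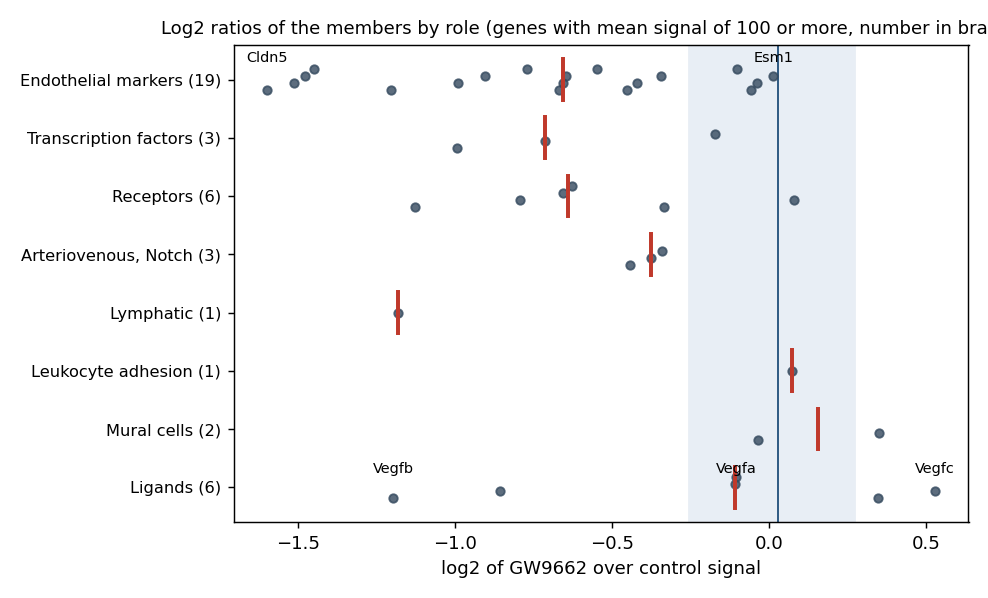
Log2 ratio of GW9662 over control signal for the 41 members with a mean signal of at least 100, by role, with each point 1 gene and the red bar the median of the role. The blue line marks the median of all 8009 genes past that minimum (0.03) and the shaded band their middle quartiles, from -0.25 to 0.28, and the ligands lie on both sides of it, from -1.20 for Vegfb to 0.53 for Vegfc.

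Ligands differed among themselves within the VEGF family. Vegfa, the main angiogenic factor and a target of hypoxia, had signals of 685.8 and 638.1, 1.07-fold lower, and its dimmer probe set had 129.0 and 61.4. Vegfb, a ligand of Flt1 linked to fatty acid handling in muscle and fat, had 385.9 and 168.5, 2.29-fold lower. Vegfc, the lymphatic growth factor, had 227.4 and 328.3, 1.44-fold higher. Figf (Vegfd), which like Vegfc encodes a ligand of Flt4, had 169.9 and 93.9, at least 1.70-fold lower. Its other probe sets had 152.1 and 94.4, and 108.0 and 82.1. Vegfb and Figf were thus lower, Vegfa was close to level at its brightest probe set and Vegfc was higher. Pdgfb, which recruits pericytes, had 395.1 and 503.0, 1.27-fold higher, while its dimmer probe set had 73.5 and 64.0. Angpt2, which loosens vessels for sprouting, had 201.5 and 186.9. Angpt1, which stabilizes vessels, had 5.0 and 1.0, both as dim as olfactory receptor genes. Whether the ligands differed from the endothelial markers beyond variation between tumors could not be tested with 1 array per diet.

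Arteriovenous and Notch pathway genes differed little. Ephb4, the ephrin receptor of veins, had signals of 303.7 and 223.6, 1.36-fold lower, and its arterial ligand Efnb2 had 547.2 and 432.0, 1.27-fold lower. Hey1, a Notch effector of arteries, had 368.2 and 283.7, 1.30-fold lower. The Notch ligand Dll4 had 73.1 and 41.9, below the floor on both arrays. The 3 readable genes were all lower, with log2 ratios between -0.44 and -0.34. Efnb2 had nearly the same ratio at its next probe set (156.6 and 123.5).

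Of the lymphatic markers, Lyve1, a hyaluronan receptor of lymphatic endothelium and of some macrophages, had signals of 343.4 and 151.6, 2.27-fold lower, and 186.0 and 80.5 at its other probe set. Prox1, the transcription factor that defines lymphatic endothelium, had 4.7 and 11.5, also as dim as olfactory receptor genes. Pdpn, a lymphatic marker also made by fibroblasts and basal epithelium, had 1647.6 and 1533.0. Lyve1 was therefore the lymphatic marker that was clearly lower, and the defining marker Prox1 was not readable.

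The 2 mural genes of the list, Rgs5 and Pdgfrb, were not lower at their brightest probe sets by more than the spread between probe sets. Rgs5, a pericyte regulator of G protein signaling, had signals of 3087.5 and 3015.3, a direction that turned when the ratios were centred on housekeeping genes. Its other probe sets had 685.1 and 550.4, 404.8 and 212.9, and 203.5 and 209.7. Pdgfrb, the pericyte receptor for Pdgfb, had 1444.3 and 1840.6, 1.27-fold higher, but 232.0 and 222.9 at its other probe set, so its direction depended on the probe set. Among further pericyte and smooth muscle genes, 4 were lower by more than that spread, namely the contractile genes Cnn1 (1099.6 and 610.9, 1.80-fold) and Myh11 (983.1 and 624.3, 1.57-fold), and the dimmer Cspg4 (189.1 and 126.1) and Des (151.3 and 70.7). Acta2 (9558.9 and 9275.4) and Tagln (4895.0 and 4895.4) were nearly level. Vcam1, an adhesion molecule of inflamed endothelium that stromal cells also express, had 917.5 and 966.3, and 203.3 and 134.2 at a dimmer probe set. Sele, the selectin of activated endothelium, had 18.3 and 9.8, no brighter than olfactory receptor probe sets.

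**Figure D3:**
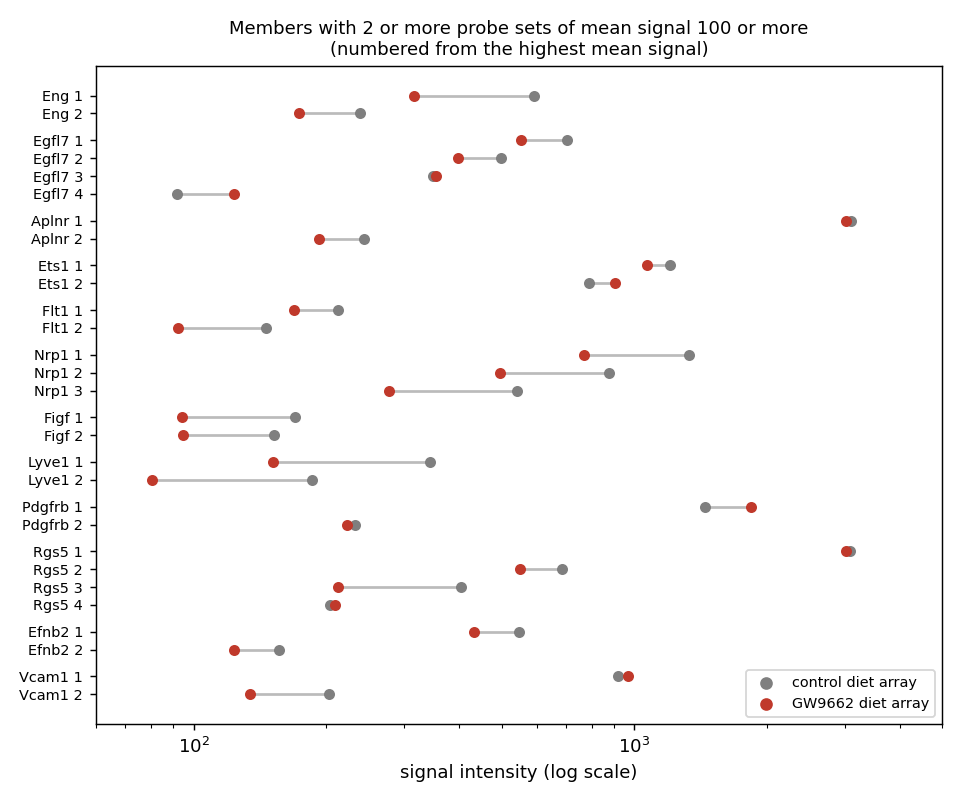
Signals (log axis) of the 12 members with 2 or more probe sets of mean signal at least 100, where gray points are the control array and red points the GW9662 array, numbered from the brightest. All readable probe sets of Eng, Aplnr, Flt1, Nrp1, Figf, Lyve1 and Efnb2 have the red point to the left, whereas those of Egfl7, Ets1, Pdgfrb, Rgs5 and Vcam1 differ in direction.

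Promoter sequence was examined because the markers and receptors were lower together. RefSeq windows of assembly GRCm38.p6, from 250 bases before to 50 bases after a start site, were matched by symbol for 26 of the 49 members and 27025 genes in all. Cldn5 (chr16:18776597-18776896, plus strand) is shown as the member with the largest fold and Vegfb (chr19:6987602-6987901, minus strand) as the ligand with the largest fold. Tie1 (chr4:118489800-118490099, minus strand) and Tek (chr4:94739039-94739338, plus strand) are shown as the angiopoietin receptor Tek and its partner, with the ETS site in Tie1 and the SOX site in Tek in capitals, 5′ to 3′.
Cldn5: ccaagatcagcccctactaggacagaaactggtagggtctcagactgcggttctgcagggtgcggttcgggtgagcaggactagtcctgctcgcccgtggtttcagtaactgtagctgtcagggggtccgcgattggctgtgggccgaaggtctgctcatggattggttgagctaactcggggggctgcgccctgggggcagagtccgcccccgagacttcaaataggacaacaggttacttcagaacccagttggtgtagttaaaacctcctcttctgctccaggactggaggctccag
Vegfb: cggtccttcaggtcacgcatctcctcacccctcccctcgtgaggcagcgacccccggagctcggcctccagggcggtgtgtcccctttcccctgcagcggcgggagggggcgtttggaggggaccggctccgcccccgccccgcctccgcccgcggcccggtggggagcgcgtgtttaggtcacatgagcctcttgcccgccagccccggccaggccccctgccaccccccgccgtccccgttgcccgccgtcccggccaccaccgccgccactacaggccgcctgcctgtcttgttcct
Tie1: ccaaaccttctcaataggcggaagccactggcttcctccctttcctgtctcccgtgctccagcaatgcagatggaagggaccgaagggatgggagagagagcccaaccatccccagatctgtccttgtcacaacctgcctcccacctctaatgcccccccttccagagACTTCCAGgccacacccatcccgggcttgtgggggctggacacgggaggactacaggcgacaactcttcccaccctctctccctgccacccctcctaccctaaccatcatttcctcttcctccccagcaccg
Tek: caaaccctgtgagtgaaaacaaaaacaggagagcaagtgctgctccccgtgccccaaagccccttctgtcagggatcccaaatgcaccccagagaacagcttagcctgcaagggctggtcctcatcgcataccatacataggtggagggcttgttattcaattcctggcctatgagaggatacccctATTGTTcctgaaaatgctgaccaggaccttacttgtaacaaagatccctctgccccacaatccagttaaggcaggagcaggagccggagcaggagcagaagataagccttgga

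An ETS site, CNGGAAGT or its reverse complement ACTTCCNG, is bound by factors such as Erg and Ets1. It was in the windows of 3 of the 26 members (11.5%), Egfl7, Tie1 and Ephb4, and of 10.7% of all genes. A SOX site, AACAAT or ATTGTT, was in those of 3 members (11.5%), Emcn, Erg and Tek, and of 12.2% of all genes. The core of the hypoxia response element, ACGTG or CACGT, was in those of 1 member (3.85%), Vegfa, and of 21.8% of all genes. A PPAR element, the direct repeat of AGGTCA with 1 base between, was in those of 0 members and 0.0481% of all genes on either strand. So rare an exact string could hardly be met in 26 windows, and its absence says nothing about the members. No member held more than 1 of these motifs, and the shares of ETS and SOX sites were near those of all genes. These matches describe letters in short windows and not binding.

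Further endothelial genes outside the list had nearly the same median as the markers. Of 30 readable genes, 27 were lower on the GW9662 array, with a median log2 ratio of -0.66. Once dim signals were read as 100, this median was -0.56, while that of the markers stayed at -0.66. Palmd, a phosphoprotein gene, had signals of 542.2 and 156.3, 3.47-fold lower. Thbd, the endothelial thrombin receptor thrombomodulin, had 313.5 and 133.0, 2.36-fold lower, the GTPase gene Gimap6 had 308.8 and 148.3, 2.08-fold lower, and Adgrl4, an endothelial adhesion receptor, had 358.0 and 177.5, 2.02-fold lower. The flow-responsive factor Klf2 had 298.7 and 164.2, and the ETS factor gene Fli1 had 387.5 and 227.4, 1.70-fold lower. Erg could not be read, and the value of Fli1 does not stand in for it. The caveolar gene Cavin2 had 3346.9 and 2946.0. The genes that were higher were Klf4 (928.1 and 988.7), Smad6 (189.3 and 211.0) and Tm4sf1 (3363.8 and 3974.8).

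Further receptors had a median near that of all genes, and further ligands a lower one. The 18 readable receptors had a median log2 ratio of 0.00, with 9 lower and 9 higher, and Ackr3, a scavenging receptor for Cxcl12 that tumor and fat stromal cells also express, had signals of 937.7 and 236.9, 3.96-fold lower. The brightest were Itgav, an integrin subunit (3271.3 and 3451.0), and Tgfbr2, a TGF-β receptor (2564.9 and 1790.9, 1.43-fold lower). Of the 15 readable ligands, 8 were lower and 7 higher (median -0.19). Among these, Angptl4, a lipoprotein lipase inhibitor and a target of PPARs and of hypoxia, had 1940.1 and 950.6, 2.04-fold lower. The brightest ligands were the chemokine Cxcl12 (2673.6 and 2029.2) and Pdgfc (2044.2 and 2281.1). Pgf, placental growth factor, had 979.0 and 819.7, and Apln, the ligand of Aplnr, had 254.3 and 188.0. Over all 21 readable ligands, members included, the median was -0.11.

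Inhibitors of angiogenesis were divided, with 4 of 8 lower and a median log2 ratio of -0.10. Timp3, a metalloproteinase inhibitor that also blocks VEGF binding to Kdr, had signals of 2280.8 and 830.6, 2.75-fold lower. Adamts1, a secreted protease with antiangiogenic activity, had 485.6 and 1133.1, 2.33-fold higher. The brightest inhibitors were Serpinf1 (4568.7 and 3533.9) and Timp2 (2938.8 and 2564.4). The 12 readable genes of the hypoxia response had a median of -0.16, with the glycolytic genes Pgk1 at 5516.5 and 7161.0 and Ldha at 6431.0 and 4894.0, Hif1a at 2391.8 and 2462.1, and the mitophagy gene Bnip3 at 3659.8 and 1615.3, 2.27-fold lower. Genes of the vascular basement membrane had a median of 0.00 over 9 genes, with Col4a1 at 6658.5 and 7931.5 and Sparc at 9815.6 and 7721.8. Genes linked to capillaries of fat were all lower, 8 of 8, and their median was -2.01, or -1.38 once dim signals were read as 100. Adipocytes also make several of these genes, and Fabp4 is also counted among the adipocyte markers below. Their median is therefore not a value of vessels alone. The list included the water channel Aqp1 (1916.2 and 599.5, 3.20-fold lower), the retinol binding protein Rbp7 (594.3 and 280.9, 2.12-fold lower), the fatty acid transporter Cd36 (5052.5 and 212.4, 23.8-fold lower), the fatty acid binding protein Fabp4 (13670.0 and 3097.0, 4.41-fold lower) and the lipase Lpl (7740.1 and 989.1, 7.83-fold lower).

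**Figure D4:**
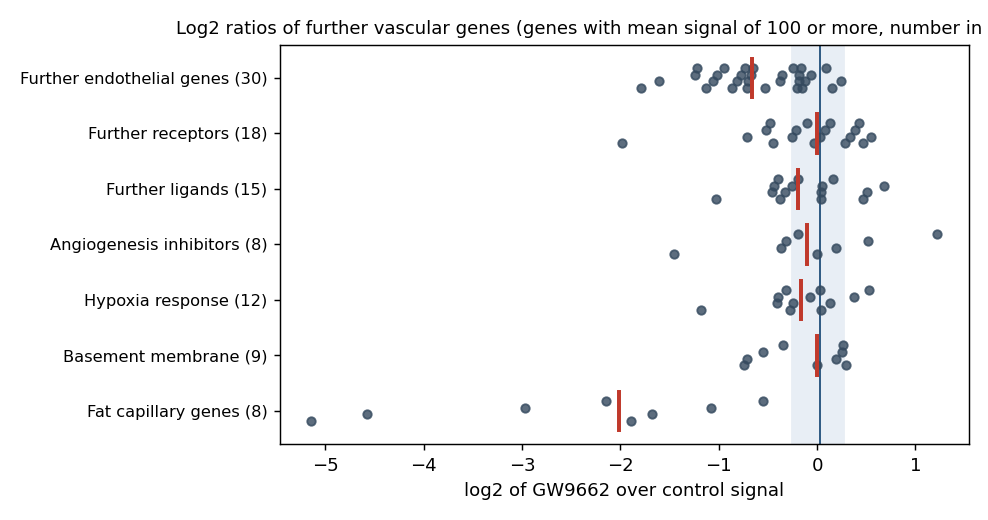
Log2 ratio of GW9662 over control signal for further vascular genes with a mean signal of at least 100, by list, with each point 1 gene, the red bar the median of the list, and the blue line and shaded band the median and middle quartiles of all 8009 genes. The 30 further endothelial genes lie mostly to the left of the band, receptors, ligands, inhibitors, hypoxia and basement membrane genes lie around it, and the 8 fat capillary genes, several of which adipocytes also make, lie furthest to the left.

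Markers of fat and muscle were far lower on the same array than those of endothelium. The 19 readable endothelial markers had a median log2 ratio of -0.66, and all 20 on the array summed to 14484 and 10298, 71.1% of control. A narrower set of 13 defining genes (Pecam1, Cdh5, Kdr, Tek, Tie1, Cldn5, Esam, Emcn, Robo4, Egfl7, Erg, Sox17 and Sox18), which takes in receptors and transcription factors and leaves out the level markers Vwf, Plvap, Aplnr and Esm1, was used for comparison. They summed to a signal of 6307 with the control diet and 3492 with GW9662, 55.4% of control, and all 11 readable genes of this set were lower with a median log2 ratio of -0.99. The 6 adipocyte markers named here had a summed signal of 30755 and 3773, 12.3% of control, with 6 of 6 lower, all at least 3-fold, among them the adipokine genes Adipoq (9668.2 and 417.5) and Retn (3667.6 and 128.1). The 6 skeletal muscle markers had 8110 and 911, 11.2% of control, with 6 of 6 lower, all at least 3-fold, among them the actin gene Acta1 (2488.4 and 284.8) and the myosin light chain gene Myl1 (1766.0 and 118.5). Fibroblast markers summed to 28919 and 20890, 72.2% of control, with 5 of 6 lower and 1 higher, and the brightest were the collagen genes Col3a1 (9709.2 and 8005.3) and Col1a2 (6428.4 and 5879.3), while Dcn had 7005.2 and 2924.9, 2.40-fold lower, and Col1a1 had 677.6 and 1120.0, 1.65-fold higher. Pericyte and smooth muscle markers summed to 21409 and 20459 (95.6%), leukocyte markers to 3594 and 3127 (87.0%), macrophage markers to 7570 and 7200 (95.1%) and epithelial markers to 39816 and 39810 (99.99%). The brightest mural markers were Acta2 (9558.9 and 9275.4) and Tagln (4895.0 and 4895.4), which carry most of that sum, whereas 6 of 8 mural markers were lower and their median log2 ratio was -0.31. The brightest epithelial markers were the keratin genes Krt8 (9496.4 and 9664.7) and Krt18 (10018.0 and 9025.3), whereas the basal keratin genes Krt5 (1255.7 and 793.1, 1.58-fold lower) and Krt14 (1022.0 and 619.5, 1.65-fold lower) were lower. Among the leukocyte markers, Coro1a (612.9 and 384.8, 1.59-fold lower) and Cd53 (579.8 and 366.5, 1.58-fold lower) were lower, whereas Ptprc, Cd52 and Laptm5 were nearly level. No marker in these lists had a signal of 0. The part of fat, muscle, fibroblasts, smooth muscle, leukocytes and basal epithelium in the lower endothelial signals was not tested. With Pecam1, Cd34, Cd93, Eng, Icam2, S1pr1 and Emcn left out, which leukocytes or other cells also express, the median of the endothelial markers was -0.71 over 12 genes.

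**Figure D5:**
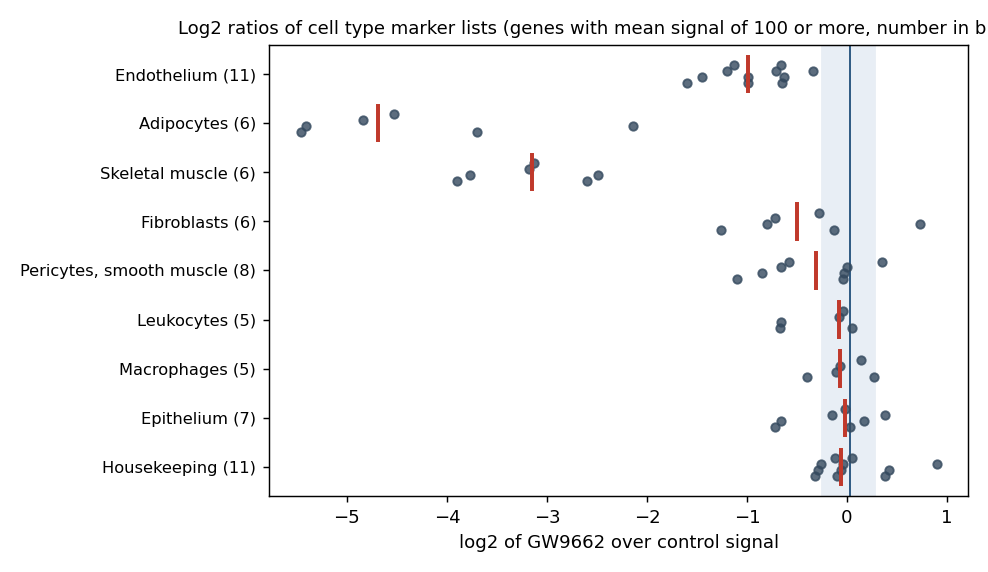
Log2 ratio of GW9662 over control signal for marker lists of cell types, with each point 1 gene of mean signal at least 100, the red bar the median of the list, and the blue line and shaded band the median and middle quartiles of all 8009 genes. The 11 readable genes of the defining endothelial set (median -0.99) lie between those of adipocytes (-4.69) and skeletal muscle (-3.15) and those of fibroblasts (-0.50), pericytes and smooth muscle (-0.31), leukocytes (-0.08), macrophages (-0.07) and epithelium (-0.02). The wider endothelial marker list is not drawn, and its median over 19 readable genes was -0.66, nearer to that of fibroblasts. Its summed signal was 71.1% of control, close to the 72.2% of fibroblast markers.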

How the data were processed

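RNA pooled from tumors of 5 mice per diet was hybridized to 1 mouse array per diet. Each probe set has 1 deposited signal intensity on a linear scale. The paper's methods name Affymetrix GeneChip Operating software 1.1 for generating raw data. For some genes, such as Retn and Rbp7, the deposited signals differ from those printed in the paper, so the steps behind them are not certain. How probes were summarized and arrays scaled is not given in the sources used here, and no detection calls were used. Signals were used as deposited, and their precision is limited by the number of arrays. Of 22690 probe sets, 20380 were named by 1 gene of the platform annotation, with symbols updated by gene identifier to RefSeq names of GRCm38.p6. Probe sets with several genes (691), no gene named here (1555) or array controls (64) were left out. A gene was called at 3-fold where its signal reached 300 on 1 array or both, as in the paper's methods, and counted also at 2-fold and 1.5-fold. Where the dimmer signal was under 100 the fold was a bound, and no fold was given when both were. Medians used genes with a mean signal of at least 100, called readable. No test was run. All members were named, with the further vascular genes past 2-fold and the brightest genes of the other lists. For macrophage genes only the sum and median are given, and for leukocyte genes Coro1a and Cd53 were added to these. Housekeeping genes had a median log2 ratio of -0.06. Fli1, Klf2, Klf4, Smad6, Pgf, Apln, Hif1a, Cnn1, Myh11, Cspg4, Des, Dcn, Col1a1, Coro1a, Cd53, Krt5 and Krt14 were chosen after their values were seen. The members and lists were chosen with earlier results of these data known. Ratios were computed with pandas 2.3.3 and numpy 2.4.6 in Python 3.11.15, tested on simulated data and plotted with matplotlib 3.10.9. Alternatives covered scaling, the choice of probe set, signal minimums, floors and folds.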

Additional observations from a re-analysis of the deposited data

How the results depend on the processing

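The direction of the medians of all members, endothelial markers and receptors was kept under each alternative run. The count of members at least 3-fold lower, 1 as reported, was 0 with quantile normalization, 0 with ratios centred on 11 housekeeping genes and 3 at 2.5-fold, where Pecam1 and Ptprb joined Cldn5. Under the same 2 scalings, 1 member, Vegfc, was at least 1.5-fold higher instead of 0. The median log2 ratio of the ligands was 0.12 instead of -0.11 with a mean signal of at least 300, which leaves 2 ligands, Vegfa and Pdgfb. The 2-fold count of 5 ranged from 4 to 7. Of 205 log2 ratios of 41 members under 5 settings, 204 moved by less than the SD between probe sets. The remaining 1, that of Pdgfrb, moved by more (-0.06 with another probe set). Many of the 204 could not have moved that far. Centring shifts every ratio by the same amount, which was far below that SD. Another choice of probe set cannot move a gene with 1 probe set, and 19 of the 48 members have more. The count of 204 is therefore no measure of robustness. The ratios of Angpt2, Aplnr, Ets1, Pdgfrb, Rgs5, Vcam1 and Vwf, none of them called, changed sign under at least 1 setting. No paired analysis was possible because each diet has 1 array. Leaving out a replicate was not possible for the same reason. Dim signals, under 300 on both arrays, limit Tek, Tie1, Kdr, Flt1, Flt4, Nrp2, Figf and Nos3. The same holds for Robo4, Rasip1, S1pr1, Sox17, Angpt2 and Dll4. Erg, Prox1, Angpt1 and Sele could not be read.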
